A study of Mus musculus with 30 samples.

Results

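The broad H3K9ac domains are the widest stretches of acetylated chromatin in the embryonic mouse forebrain that also carry crotonylation at the same lysine. A domain was any deposited forebrain H3K9ac peak at least 2500 bp wide that shared at least 1 bp with a forebrain H3K9cr peak. Of 16610 H3K9ac peaks, 1191 met this rule, which is 7.17% of the peaks but 20.4% of the bases under them (4.31 of 21.1 Mb). The members were chosen by measured width and H3K9cr overlap, so both are given as descriptions with no test, and so is every other property read from those 2 lists. A further 11 peaks of at least 2500 bp met no H3K9cr peak, and 10186 narrower peaks did meet one and serve as the comparison below.

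The peaks came from C57BL/6 forebrain at E13.5, in mid-neurogenesis, with 1 ChIP library each for H3K9ac and H3K9cr and 1 RNA library from the same stage and tissue. Neural stem and progenitor cells (NSPCs) were grown from C57BL/6 forebrain of that age in EGF and FGF and were kept for 24 h in DMSO (the control), 10 mM crotonate or 1 µM MS-275. Each treatment has 4 RNA libraries and 1 ChIP library per antibody, against acetylated lysine on any histone site (pan-Kac) or crotonylated lysine (pan-Kcr). Forebrain explants from ICR embryos of the same age were sequenced as RNA in 3 control and 3 crotonate libraries, and the crotonate dose of the explants is not given in the sources used here. Crotonate is a short-chain fatty acid that cells turn into crotonyl-CoA, the donor for crotonylation, and MS-275 (entinostat) inhibits class I histone deacetylases.

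Acetylation and crotonylation of histone H3 lysine 9 both mark active promoters and are written by overlapping sets of acyltransferases. Most acetylated promoters carry a peak little wider than the nucleosomes that flank the start site, whereas unusually broad domains of active marks are known from genes that define a cell's identity, among them developmental transcription factors and lineage microRNAs. In the forebrain Dlx factors direct the inhibitory neurons of the ventral telencephalon, Sox2 maintains progenitors, and miR-9 and miR-124 act in progenitors and neurons.

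The 3 genomic loci of miR-9 were among the 5 widest domains, and the mature sequences are shown because these genes, on 3 chromosomes, give the same microRNA. Capitals mark the seed, bases 2 to 8 from the 5′ end, which pairs with target messages. Sequences are from RefSeq on GRCm38.p6, and this choice was made after the widths were seen. The first pair comes from all 3 miR-9 genes, the remaining 3 from genes in other broad domains, and no seed is shared between the 5 sequences.
miR-9-5p: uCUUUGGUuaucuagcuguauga
miR-9-3p: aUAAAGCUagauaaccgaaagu
miR-125b-5p: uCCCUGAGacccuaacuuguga
miR-92b-3p: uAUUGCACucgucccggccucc
let-7i-5p: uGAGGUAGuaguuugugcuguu

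The miR-9-5p sequence lies at chr13:83738821-83738843 (Mir9-2, in a domain 29741 bp wide), chr7:79505279-79505301 (Mir9-3, 25955 bp) and chr3:88215613-88215635 (Mir9-1, 25173 bp), each time on the plus strand. All 3 domains also hold the start or an end of a long noncoding gene that runs through the microRNA, namely C130071C03Rik, Mir9-3hg and Gm3764. Mir125b-1 lay in a domain of 10437 bp inside Mir100hg, and all 3 miR-124a genes were covered as well, in domains of 8991 bp (Mir124a-2), 8357 bp (Mir124a-1) and 5541 bp (Mir124a-3). Mir92b and Mirlet7i sat in domains of 3921 and 2889 bp. In all, 35 of 1228 annotated mouse miRNA genes (2.85%) lay in 28 broad domains, against 60 (4.89%) in the 10186 narrower peaks, and some of the 35 are duplicate entries of 1 hairpin. The share in broad domains was near the 3% of all 48715 genes with a position. The narrower peaks span 13.8 Mb and the broad domains 4.31 Mb. MicroRNA levels themselves were not analysed here.

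Promoters are shown for 4 domains that behave differently in the cultured cells described further on, and they were also chosen after their values were seen. Each sequence runs from 250 bases before to 50 after the start site, 5′ to 3′ on the gene's strand, with every CG in capitals, since CpG-rich promoters are the usual sites of broad active domains. They are from RefSeq on GRCm38.p6.
Sox2: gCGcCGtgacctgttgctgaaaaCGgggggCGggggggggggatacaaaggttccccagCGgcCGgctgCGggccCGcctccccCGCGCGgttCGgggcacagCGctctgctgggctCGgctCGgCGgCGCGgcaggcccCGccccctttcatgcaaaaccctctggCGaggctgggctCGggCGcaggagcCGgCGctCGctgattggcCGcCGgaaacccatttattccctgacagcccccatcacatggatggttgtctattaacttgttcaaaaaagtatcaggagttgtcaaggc
Bcl11a: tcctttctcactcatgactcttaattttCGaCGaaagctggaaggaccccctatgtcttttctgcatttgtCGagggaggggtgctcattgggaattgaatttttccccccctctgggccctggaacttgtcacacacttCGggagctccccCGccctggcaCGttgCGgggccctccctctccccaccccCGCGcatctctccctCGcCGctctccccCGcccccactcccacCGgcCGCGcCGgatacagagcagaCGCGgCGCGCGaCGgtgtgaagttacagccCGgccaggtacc
Gad2: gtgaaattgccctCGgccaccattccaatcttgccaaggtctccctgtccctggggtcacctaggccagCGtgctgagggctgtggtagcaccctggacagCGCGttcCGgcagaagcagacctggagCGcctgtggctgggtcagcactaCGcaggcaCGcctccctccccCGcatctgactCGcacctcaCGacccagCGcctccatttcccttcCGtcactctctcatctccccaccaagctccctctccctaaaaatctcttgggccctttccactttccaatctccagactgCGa
Rtn4rl2: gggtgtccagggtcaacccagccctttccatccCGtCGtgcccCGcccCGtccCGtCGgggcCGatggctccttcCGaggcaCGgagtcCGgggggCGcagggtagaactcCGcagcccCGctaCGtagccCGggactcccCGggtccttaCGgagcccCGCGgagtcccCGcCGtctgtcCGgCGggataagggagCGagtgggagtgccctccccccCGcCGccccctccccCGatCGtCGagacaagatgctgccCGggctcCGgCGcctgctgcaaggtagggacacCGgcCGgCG

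The Sox2 promoter (chr3:34649745-34650044, plus strand) was inside its 19105 bp domain over all 300 bases, and H3K9cr peaks covered 14 of them. The other bases fell in a gap between called H3K9cr peaks, from -7.836 to -7.538 kb relative to the domain's centre. Both forebrain marks covered all 300 bases of the promoters of Bcl11a (chr11:24080445-24080744, plus), Gad2 (chr2:22622077-22622376, plus) and Rtn4rl2 (chr2:84886643-84886942, minus). In control NSPCs neither antibody gave a peak over the promoters of Bcl11a, Gad2 or Rtn4rl2, and pan-Kcr gave one over 64 bases of that of Sox2. At Rtn4rl2 a pan-Kac peak covered 138 bases after crotonate and 227 after MS-275, and a pan-Kcr peak covered 174 bases after crotonate and none after MS-275. The 4 promoters hold 27 (Sox2), 23 (Bcl11a), 14 (Gad2) and 35 (Rtn4rl2) CG dinucleotides.

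Promoters on chromosome 18 were left out of the following counts. Across the 1206 promoters of protein-coding genes whose start lay in a broad domain, the median number of CG was 26 (quartiles 18 and 35) and the median GC content 65.0%. The 7932 promoters in narrower H3K9ac peaks with H3K9cr had a median of 23 CG and 62.3% GC, and the 11073 promoters outside any H3K9ac peak a median of 4 CG and 50.0% GC. The ratio of observed to expected CG was 0.84, 0.81 and 0.24 in these classes. GGGCGG, the GC box bound by Sp factors, searched on both strands, was present in 72.3% of promoters in broad domains, 69.5% in narrower peaks and 46.2% of all 21263. TATAAA was present in 7.46%, 4.94% and 12.6% of the same classes, on either strand. Broad and narrower promoters were thus close to each other in base composition, and both differed from promoters with a start outside any H3K9ac peak.

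The narrowest domain was 2501 bp wide and the median width 3014 bp. At least 3000 bp were reached by 603 of them, at least 5000 bp by 125, at least 10000 bp by 17 and at least 20000 bp by 5. The threshold falls in a continuous range of widths: the 5 members nearest to it, at Lrsam1 and Rpl12, in Dlg3, and at Ahsa2, H2ac12 and Tacc3, were 2501 or 2502 bp wide, and the 5 peaks just outside, among them those at Gdf11, Cxxc4, Slco5a1 and Lrp1, were 2496 to 2499 bp wide. The median fold enrichment at the summit, the authors' own value per peak, was 32.7 in the broad domains and 18.6 in the narrower peaks. Among the domains themselves, wider did not mean higher: the rank correlation of width with fold enrichment was -0.04 over the 1191 domains.

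H3K9cr peaks covered a median of 71.8% of the bases of a domain, from 4.77 to 100%, and 66.7% of a narrower peak. A single H3K9cr peak lay in 782 domains, 2 in 333 and 3 or more in 76. At least 50% of the bases were covered in 1036 domains and at least 90% in 99, whereas 25 had less than 25% covered. The covered share was no higher in wider domains (rank correlation 0.00), with medians of 72.1% at 2500 to 3000 bp (n = 588), 71.2% at 3000 to 4000 bp (n = 380), 71.1% at 4000 to 6000 bp (n = 151) and 70.2% at 6000 to 10000 bp (n = 55). The 17 domains of at least 10000 bp had a median of 80.0%. H3K9ac fold enrichment followed that of the strongest H3K9cr peak inside the domain closely (rank correlation 0.95), and the covered share less so (0.46 with H3K9ac fold). These correlations run over regions of 1 library per mark from the same tissue, and the regions share depth and input.

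**Figure D1:**
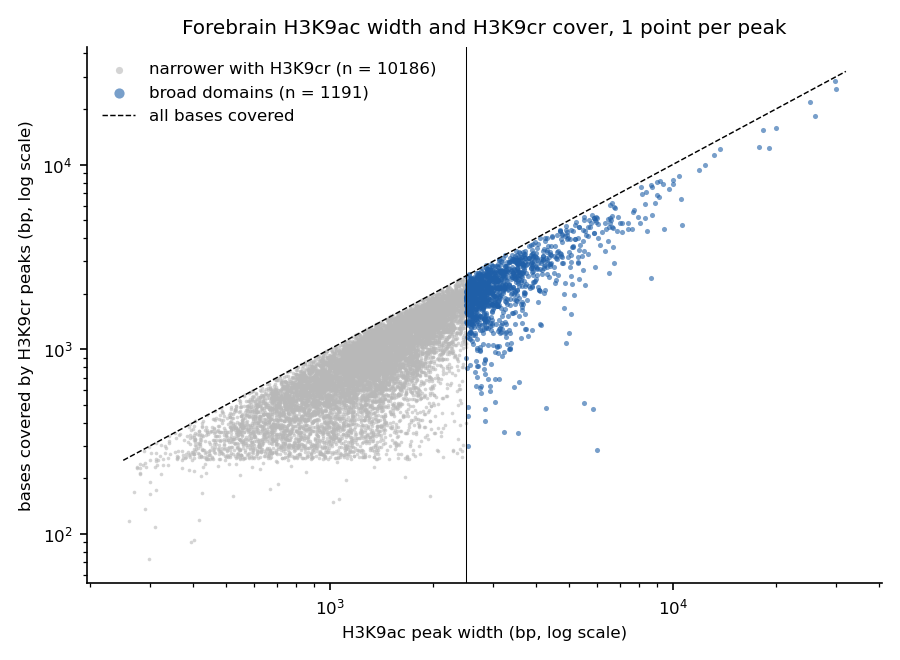
Width of each forebrain H3K9ac peak (bp, log scale) against the bases of it under H3K9cr peaks (bp, log scale), 1 point per peak, for the 1191 broad domains and the 10186 narrower peaks, with the 2500 bp limit as a vertical line and full cover as the dashed line. The broad domains run on from the narrower peaks without a gap, most lie a little below the dashed line, and 25 lie far below it with less than 25% of their bases covered.

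The Mir9-2 domain (chr13:83713257-83742997) was covered to 95.7% by 1 H3K9cr peak of 28472 bp, and its H3K9ac fold enrichment was 75.4. The Mir9-3 domain held 4 H3K9cr peaks over 70.3% of its bases and the Mir9-1 domain 5 over 86.4%. Below the 3 miR-9 loci came Nfib, a transcription factor of glial and cortical differentiation (20031 bp, 79.1% covered), Sox2 (19105 bp, 64.3%), and Dlx6 (18304 bp, 83.8%). Meis2, a homeobox gene of the striatal lineage, followed with 17904 bp and 70.0% covered. Pou3f3, a POU factor of upper-layer neurons, had 13787 bp (88.4%), and the chromatin-associated gene Tnrc18 13195 bp (85.5%). Others of the 15 widest were at Mn1 (12423 bp), Bcl11a (11936 bp), the long noncoding genes 3110006O06Rik and Gm17750 (10640 and 10581 bp) and Mir125b-1.

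Cover and width parted at some loci. Among the 100 widest domains the lowest H3K9cr shares were 4.77% at the protocadherin gene Pcdh7 (6001 bp), 8.06% at A730094K22Rik (5870 bp) and 9.24% at a domain within the gene body of Map1b (5499 bp), a microtubule-associated protein of neurons. The highest were at the Mir9-2 locus, at the receptor kinase gene Ddr1 (94.7%, 5511 bp) and at the RNA-binding protein gene Mex3a (94.0%, 8082 bp).

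**Figure D2:**
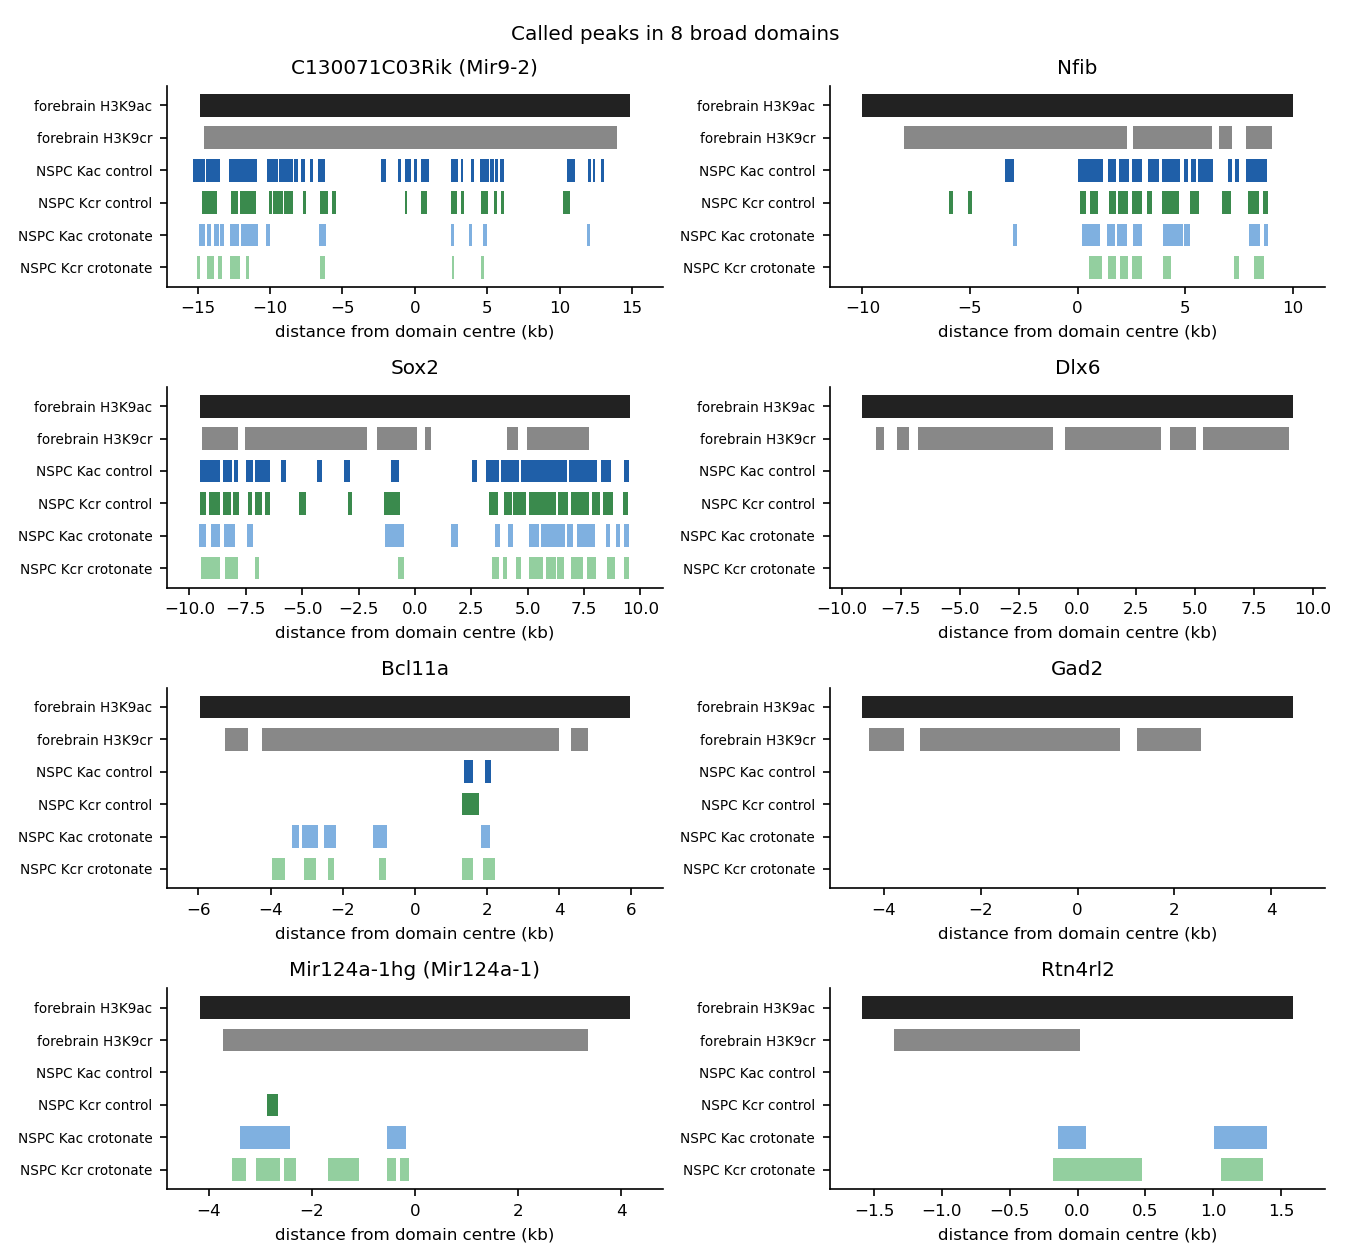
Called peaks in 8 broad domains by distance from the domain's centre (kb), 1 line per list: forebrain H3K9ac and H3K9cr, and pan-Kac and pan-Kcr of control and crotonate-treated NSPCs. In the Nfib domain most of the 13 pan-Kac and 13 pan-Kcr control peaks lie to the right of the centre. The Dlx6 and Gad2 domains hold no NSPC peak, and the Bcl11a domain goes from 2 to 5 pan-Kac and from 1 to 6 pan-Kcr peaks with crotonate.

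A small part of the domains lay in chains. Joining domains less than 10 kb apart gave 34 chains of 2 or more, holding 80 of the 1191 domains (6.72%), and 8 chains of 3 or more. At Nr2f1, a nuclear receptor that patterns the cortex, 5 domains summed to 33225 bp within chr13:78162717-78205100. The loci of Mllt10 and Skida1 had 5 domains (20943 bp summed), and those of Pou3f3 (28487 bp), Nr2f2 (21540 bp), Dlx1 and Dlx2 (19089 bp), Lhx2 (15783 bp), Otx1 (11731 bp) and Celf2 (10982 bp) had 3 each. Of these 8 chains, 6 are at homeobox, POU or nuclear receptor genes of forebrain development. A transcription start or gene end lay in 1043 of the domains (87.6%), against 77.6% of the narrower peaks. Of the 148 other domains, 136 were within gene bodies, the widest being in Zbtb20 (8685 bp), Nr2f2 (6772 bp), Tcf4 (6650 bp), Sp9 (6409 bp) and Sox2ot (6227 bp), and 12 were outside annotated genes.

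The domains held 1461 genes, which is 3% of the 48715 annotated genes with a position. Of 21887 protein-coding genes, 1160 were among them (5.3%). Gene lists were read against this 5.3%, which includes genes without H3K9ac. Of the 21263 protein-coding promoters counted above, 11073 had a start outside any H3K9ac peak, 7932 in narrower peaks with H3K9cr and 1206 in broad domains. The list shares were not matched for the presence of H3K9ac. Of 40 transcription factors of the telencephalon and cortex, 25 (62.5%) had a start in a broad domain, as did 14 of 30 genes of the ventral forebrain and GABAergic neurons (46.7%) and 17 of 30 neural progenitor genes (56.7%). RNA splicing factors had 21 of 31 in broad domains (67.7%) and immediate early genes 15 of 25 (60.0%). For chromatin regulators the count was 18 of 47 (38.3%), for cell cycle genes 9 of 30 (30.0%) and for neuronal genes 9 of 32 (28.1%). Ribosomal protein genes, among the most active of all, had 4 of 26 in broad domains (15.4%) and 19 in narrower peaks.

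Genes of other regions and cell types were outside. None of 30 patterning genes of the diencephalon, midbrain and hypothalamus had a start in a broad domain, and 27 of them had no start in any H3K9ac peak. These genes are mostly transcription factors, with the ligands Shh and Wnt1 among them. None of 25 Hox genes had a start in an H3K9ac peak. None of 10 endothelial, 12 microglial and blood, or 12 mesenchymal and meningeal markers lay in a broad domain, and of 11 choroid plexus and Cajal-Retzius markers only Otx2 did (3116 bp, 22.1% covered by H3K9cr). The lists were chosen with earlier results of these data known, so these counts describe the domains and carry no test.

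The RNA of the tissue carried the markers of its label: Dlx1 was at 498 TPM (a length-scaled transcript share of the library), Neurod6 at 330, Lhx2 at 252 and Tbr1 at 174. Cultured NSPCs kept Lhx2 (63.9 ± 5.38 TPM, SD, n = 4) and Emx2 (46.9 ± 6.77 TPM), but were at 1.29 ± 1.13 TPM for Dlx1 and 0.371 TPM for Neurod6. Markers of blood and microglia summed to 3020 TPM in the forebrain library and to 1.0 to 6.07 in NSPC libraries, and the 10 endothelial markers to 92.9 TPM in the forebrain. Endothelial markers also moved with treatment in the NSPCs, with sums of 5.84 to 9.1 TPM in control, 13.3 to 16.2 in crotonate and 37.5 to 49.8 in MS-275 libraries (1, 2 and 3 of the 10 at a mean of at least 1 TPM), and their part in the results below was not tested. Neither the RNA table nor the peak lists hold read counts, so no sequencing depth can be given. In bulk RNA, fewer cells of a type and less RNA per cell cannot be told apart.

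Nearly all forebrain domains met acylated chromatin in cultured progenitors. A control NSPC pan-Kac peak overlapped 1068 of the 1191 domains (89.7%), against 76.0% of narrower peaks and 62.1% of all forebrain H3K9ac peaks. For control pan-Kcr the shares were 84.8%, 66.6% and 53.2%. After crotonate a pan-Kac peak met 87.7% of the domains (all H3K9ac peaks, 60.7%) and a pan-Kcr peak 89.9% (all, 64.8%). After MS-275 the shares were 42.3% for pan-Kac (all, 19.2%) and 36.2% for pan-Kcr (all, 16.5%), from lists of 7555 and 5845 peaks, against 23427 and 17669 in the control lists.

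A wide region has more room to meet a peak, and on an equal footing the difference was small. Within the central 500 bp of each peak, control pan-Kac met 67.2% of the domains and 68.3% of the narrower peaks, and control pan-Kcr 62.1% and 59.0%. The share of bases covered was likewise 28.8% and 28.4% for control pan-Kac and 23.5% and 22.3% for control pan-Kcr. For MS-275 the overlaps were more sensitive to this choice, with the central 500 bp met in 18.2% (pan-Kac) and 14.5% (pan-Kcr) of the domains and 13.9% and 13.0% of the narrower peaks. Each list is 1 library with no score per peak, so none of these differences has a replicate check.

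**Figure D3:**
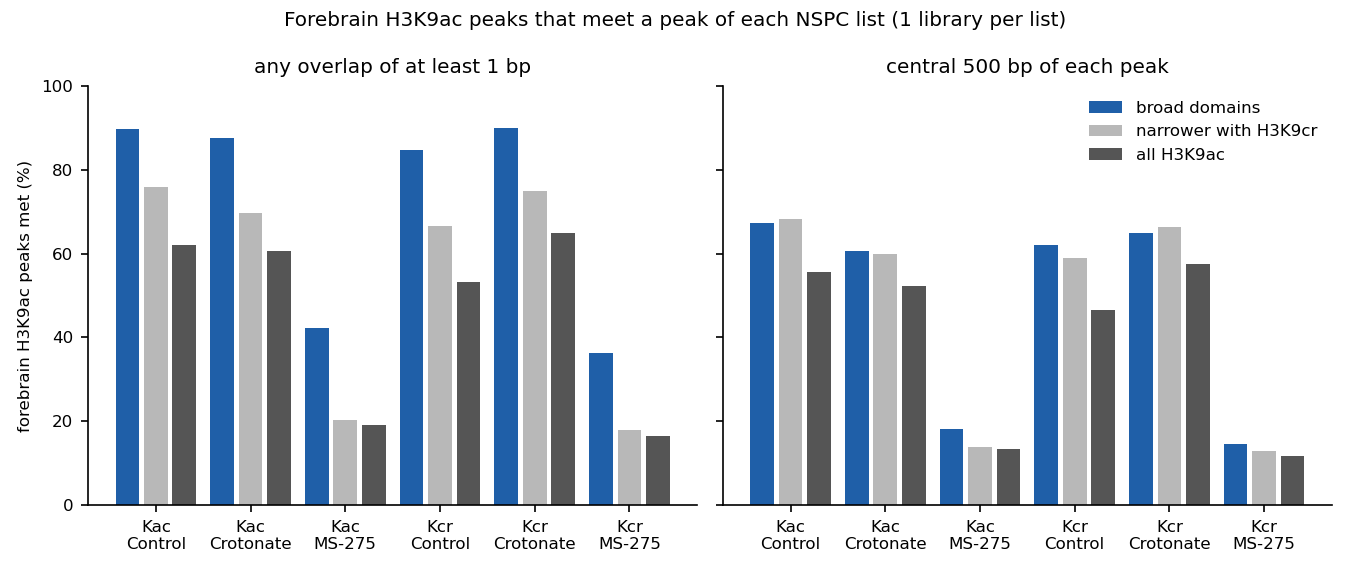
Share of forebrain H3K9ac peaks (%) that meet a peak of each of the 6 NSPC lists, by at least 1 bp (left) or within the central 500 bp (right), for broad domains, narrower peaks with H3K9cr and all H3K9ac peaks, 1 library per list. The bars of the broad domains are highest for every list on the left (89.7% for control pan-Kac), and on the right the broad and narrower bars are within 5 points of each other.

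Peaks in both control lists were found at 993 domains (83.4%, against 48.9% of all H3K9ac peaks), in all 6 lists at 255 (21.4%, all 6.29%) and in none at 50 (4.2%, all 20.7%). The 106 domains without a control NSPC peak (8.9%, all 33.6%) were led by Dlx6 (18304 bp) and its neighbour Dlx5 (9748 bp), the neuronal surface protein gene Islr2 (9102 bp), Gad2 (8902 bp), an enzyme that makes GABA, and Nr2f2 (8622 bp). None of the 6 lists had a peak in the Dlx6 domain. Of the 14 ventral and GABAergic genes in broad domains, 4 (28.6%) had a control peak in their domain in either list, against 15 (pan-Kac) and 16 (pan-Kcr) of the 17 progenitor genes, 21 of 21 splicing factors in both lists, and 17 (68.0%) and 16 (64.0%) of the 25 telencephalic factors. With crotonate, 99 domains (8.31%) had a pan-Kcr peak without one in the control, against 18.1% of all H3K9ac peaks and 16.4% of narrower ones. A region with a control pan-Kcr peak could not enter this count. Such a peak was present in 84.8% of the domains, 53.2% of all H3K9ac peaks and 66.6% of narrower ones. The shares therefore do not show how often regions without a control pan-Kcr peak gained one. A pan-Kcr peak in the control alone was found at 38 domains (3.19%), against 6.42% of all and 8.02% of narrower peaks. Of the 99 domains with a pan-Kcr peak after crotonate alone, 52 already had a control pan-Kac peak and 47 had no control peak of either kind.

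Genes of broad domains were abundant in the tissue. Their median level was 58.8 TPM in the forebrain and 33.9 TPM in control NSPCs, against 28.3 and 23.7 TPM for genes in narrower peaks. Set against the mean of the 4 control NSPC libraries, 419 of 1259 domain genes (33.3%) were at least 2-fold higher in the forebrain and 69 (5.48%) at least 2-fold lower. The background over all 15817 genes compared was 24.3% higher and 11.7% lower, and genes in narrower peaks had 17.9% and 7.62%. The forebrain has 1 RNA library, so this comparison has no test.

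The wider the domain, the more often its genes were higher in tissue than in culture. At least 2-fold higher levels were found for 23.7% of 599 protein-coding genes in domains of 2500 to 3000 bp, 33.1% of 362 at 3000 to 4000 bp, 51.7% of 120 at 4000 to 6000 bp and 75.0% of 52 at 6000 bp or more. Median forebrain levels along the same classes were 62.5, 70.5, 97.4 and 108 TPM, and median NSPC levels 47.3, 40.1, 35.6 and 19.0 TPM. The share of genes at least 2-fold lower in the forebrain was 5.68, 5.8, 9.17 and 0% along these classes, and so did not follow width in 1 direction. All 9 neuronal genes, 12 of 14 ventral genes and 17 of 25 telencephalic factors were 2-fold higher, against 3 of 21 splicing factors and 1 of 9 cell cycle genes.

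The share of genes higher in the forebrain also differed with the NSPC peaks of the domain. Where neither control list had a peak, the 72 protein-coding genes had a median of 55.9 TPM in the forebrain and 1.94 TPM in control NSPCs, and 61 of them (84.7%) were 2-fold higher in the forebrain. Where both lists had one, the 981 genes had medians of 72.1 and 48.3 TPM, and 27.0% were 2-fold higher. The 88 genes with a peak in 1 list had medians of 41.6 and 17.7 TPM, and 44.8% were 2-fold higher. Their NSPC level and this share lay between those of the other classes, while their forebrain level was below both.

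**Figure D4:**
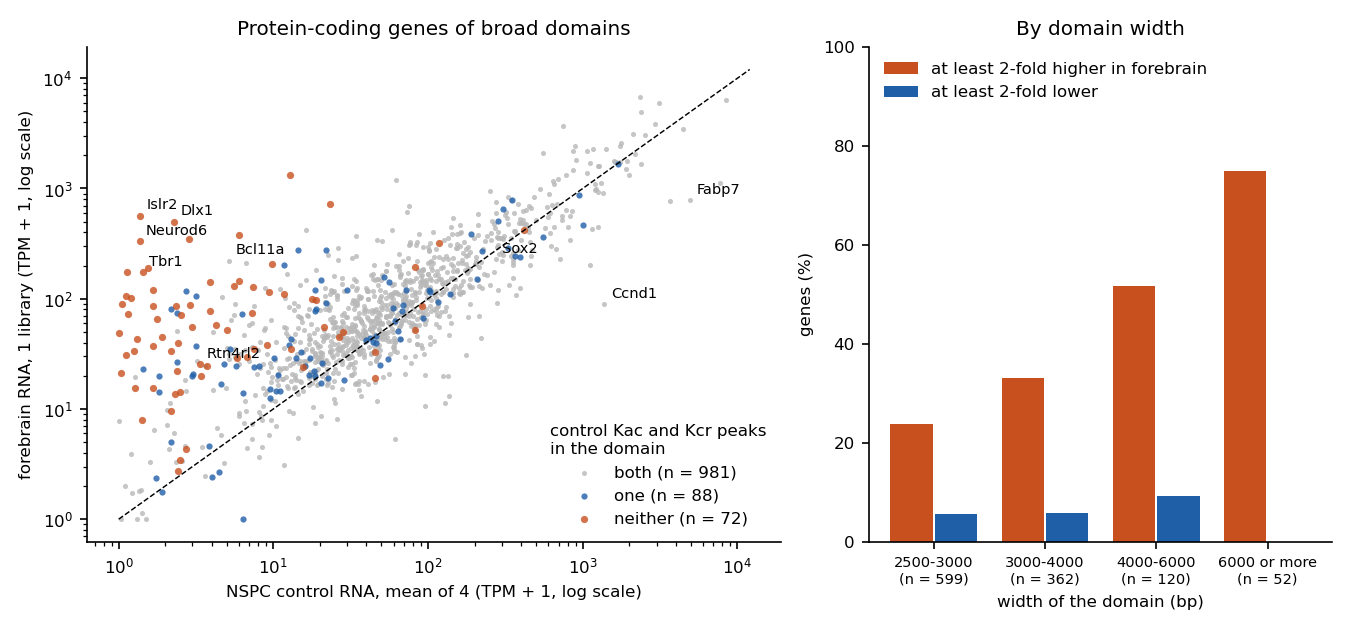
Left, RNA of protein-coding genes of broad domains in the forebrain (1 library) against the mean of 4 control NSPC libraries (TPM + 1, log scales), coloured by whether both, 1 or neither of the control pan-Kac and pan-Kcr lists has a peak in the domain. Right, share of genes (%) at least 2-fold higher or lower in the forebrain by domain width; the higher share goes from 23.7% in the narrowest class to 75.0% in the widest.

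In NSPCs treated with crotonate, genes of broad domains fell more often than they rose, which was the opposite of the balance over all genes. Of 1214 domain genes tested, 236 rose (19.4%, background 32.3%) and 400 fell (32.9%, background 15.9%) at a Benjamini-Hochberg adjusted p under 0.05 in limma, over 14857 genes. Their median log2 difference was -0.06, against 0.09 over all genes. Part of this gap goes with level: among genes with a mean of at least 10 TPM, 17.5% of 997 domain genes rose and 37.8% fell, against 28.2% and 22.8% of all 9449 such genes. Among those under 10 TPM, 28.6% of 217 domain genes rose and 10.6% fell, against 39.3% and 3.75% of all 5408. Quantile normalization moved the median over all genes from 0.09 to -0.05 and gave 14.3% of domain genes up and 39.2% down.

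The largest rise was that of Rtn4rl2, a Nogo receptor family member of neurons whose promoter is printed above (domain of 3176 bp). Its level was 2.37, 1.45, 2.13 and 3.48 TPM in control and 25.4, 31.5, 27.4 and 22.7 TPM in crotonate libraries. The groups did not overlap, the means being 2.36 ± 0.844 and 26.7 ± 3.72 TPM (SD, n = 4), an 11.3-fold ratio. The log2 difference on TPM + 1 was 3.07 (SE 0.15, limma adjusted p = 2.49e-08).

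Celf4, a neuronal splicing regulator, went from 2.89 ± 0.511 to 16.3 ± 1.21 TPM (log2 difference 2.16, limma adjusted p = 1.72e-08). Mir124a-1hg, the host transcript of Mir124a-1 with a domain of 8357 bp, was at 1.32, 1.69, 2.49 and 1.3 TPM in control and 5.86, 10.3, 7.34 and 8.46 TPM in crotonate libraries. These groups did not overlap either (log2 difference 1.73, limma adjusted p = 5.27e-06). Of the other 5 of the 8 largest rises, Nsg2, a neuronal vesicle protein, went from 22.3 ± 3.26 to 65.4 ± 8.95 TPM and Kcnn1, a potassium channel, from 1.38 ± 0.411 to 5.66 ± 1.38 TPM. The remaining 3 were H2-DMa, which shares the domain of Brd2, Serinc2 and Frmd5, with log2 differences of 2.06, 1.68 and 1.45.

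Bcl11a, a zinc finger factor of cortical neurons, had higher RNA with crotonate and more called NSPC peaks in its domain. Its control libraries were at 3.57, 4.79, 3.57 and 4.7 TPM and its crotonate libraries at 10.2, 9.27, 9.01 and 9.92 TPM. The groups did not overlap (log2 difference 1.05, SE 0.1, limma adjusted p = 6.01e-06), and all were far under the 220 TPM of the forebrain. Neither antibody gave a crotonate peak over the 300 bases of the Bcl11a promoter printed above. With MS-275 Bcl11a RNA was also called higher, while its domain held no pan-Kac peak and 1 pan-Kcr peak. A link between the peaks and the RNA was not tested. Islr2, without a control peak in its 9102 bp domain, was at 0.156, 0.171, 0.104 and 1.07 TPM in control and 2.89, 2.55, 2.79 and 4.65 TPM in crotonate libraries, against 566 TPM in the forebrain. It passed the filter of 1 TPM through the treated libraries, so its values are a description with no test.

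Genes of cell division were among the 8 largest decreases. Kif20a, a kinesin of cytokinesis, was at 74.5, 78.7, 72.4 and 71.9 TPM in control and 40.9, 39.2, 38.4 and 43.2 TPM in crotonate libraries (log2 difference -0.86, limma adjusted p = 2.98e-06), with no overlap. Cip2a, an inhibitor of the phosphatase PP2A, went from 77.8 ± 1.88 to 43.4 ± 2.96 TPM, and Cdca2, which recruits a phosphatase to chromosomes, from 49.3 ± 3.83 to 28.3 ± 2.97 TPM. The stress-response factors Ddit3 and Atf5 (log2 differences -0.77 and -0.74), E130114P18Rik (-0.88), Gcat (-0.78) and Arl4c (-0.74) were the others.

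The gene lists differed in direction, and over all 1214 domain genes tested 19.4% rose and 32.9% fell. All 9 cell cycle genes in broad domains fell with crotonate (median log2 difference -0.6), Pcna, the sliding clamp of DNA replication, from 550 ± 24.6 to 364 ± 22.0 TPM. Of 21 splicing factors 19 fell and Srrm2 rose (median -0.26), with Hnrnpu from 676 ± 15.3 to 513 ± 26.0 TPM and Ptbp1, the repressor of neuronal splicing, from 181 ± 6.35 to 138 ± 7.08 TPM. Of 18 chromatin regulators 7 fell, Brd2 and Ezh2 among them, a share (38.9%) near that of all domain genes. Chd3, a neuronal remodeler, rose from 15.3 ± 1.59 to 29.5 ± 3.66 TPM. Among 9 neuronal genes 6 rose, with Map1b from 25.2 ± 1.48 to 48.5 ± 2.39 TPM, and Map2 and Stmn1 fell. Of 15 immediate early genes 7 rose and 2 fell, with Egr1 from 204 ± 11.1 to 350 ± 23.9 TPM, and with the replicate number as a block 11 rose.

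Few telencephalic factors were called with crotonate. Of 20 telencephalic factors tested 4 rose (Bcl11a, Bcl11b, Cux1 and Pou3f3) and 2 fell (Insm1 and Lmo4). The progenitor factor Sox2 was at 287 ± 10.7 TPM with crotonate and 273 ± 13.2 TPM in control (log2 difference 0.07, SE 0.048, limma adjusted p = 0.251); under quantile normalization it was called higher, at 0.14. Of 14 ventral genes 11 passed the filter, 5 of them in all 4 control libraries. Of the 11, 5 were called higher and none lower, at levels of a few TPM, and 1 of these 5 calls was on a gene that reached 1 TPM in all control libraries. Dlx6 went from 1.99 ± 1.47 to 4.33 ± 1.8 TPM with overlapping groups and Gad2 from 1.34 ± 0.355 to 2.75 ± 0.663 TPM. Under quantile normalization 1 of these 11 rose and their median went from 0.35 to -0.05, so their direction depends on the scaling. The call on Dlx6 was lost in 12 alternatives: without the filter, without the trend, under quantile normalization, without control replicate 2 or 3, without crotonate replicate 1, 2 or 3, and without any 1 of the 4 MS-275 libraries. Dlx5, at 0.4 to 0.896 TPM in control, passed the filter through the treated libraries alone.

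The microRNA host transcripts rose by smaller steps than Mir124a-1hg. Mir9-3hg went from 166 ± 4.58 to 220 ± 7.66 TPM (log2 difference 0.4), Gm3764 at Mir9-1 from 991 ± 19.3 to 1430 ± 58.6 TPM (0.53) and C130071C03Rik at Mir9-2 from 75.9 ± 3.33 to 87.0 ± 4.91 TPM (0.19), with limma adjusted p of 1.76e-05, 8.01e-08 and 0.00747. In all 3 the control and crotonate libraries did not overlap. Mir100hg rose from 65.8 ± 8.25 to 91.1 ± 8.38 TPM. Mir124-2hg went from 11.6 ± 1.18 to 17.2 ± 2.82 TPM (0.53), a call lost under quantile normalization.

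The response was also counted by whether the domain had a peak in control NSPCs. Of 58 tested genes in domains with neither control peak, 34 rose with crotonate (58.6%) and 4 fell, whereas of 969 in domains with both, 15.7% rose and 36.9% fell. The first class has 72 genes, and some of the 58 passed the filter only through treated libraries; of the 42 at 1 TPM or more in all 4 control libraries, 25 rose (59.5%) and 4 fell. Genes of the first class have low levels in NSPCs, and low genes rose more often in general (39.3% of all tested genes under 10 TPM). Under 10 TPM, 22 of 37 genes without a control peak rose (59.5%), against 23.8% of 80 with both. Under quantile normalization these 2 shares were 21.6% and 7.5%, beside 16.8% of all tested genes under 10 TPM. Quantile normalization gave 19 of 58 up and 6 down in the first class and 13.1% up and 42.2% down in the other, so the count of rises in the first class depends on the scaling by more than 1.5 times. Of 74 genes whose domain had a pan-Kcr peak with crotonate and not in control, 30 rose (40.5%) and 14 fell, and under quantile normalization 16 rose and 20 fell. The difference between these classes was not tested.

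The number of NSPC peaks called inside a wide domain differed between domains and treatments. The Mir9-2 domain (C130071C03Rik) held 25, 12 and 5 pan-Kac peaks and 17, 8 and 3 pan-Kcr peaks in the control, crotonate and MS-275 lists, in that order. At Nfib the numbers were 13, 9 and 5 for pan-Kac and 13, 7 and 0 for pan-Kcr, and at Sox2 16, 15 and 8 and 19, 14 and 2. At Meis2 pan-Kcr went the other way, from 9 to 12 peaks, at Tnrc18 it had 11 in both lists, and Dlx6 had none. Of the 15 widest domains 11 had fewer pan-Kcr peaks with crotonate than in control and 2 had more. Over all 1191 domains 326 had fewer and 422 more, with a mean of 2.18 peaks per domain in control and 2.31 with crotonate, while the whole pan-Kcr list went from 17669 to 23301 peaks. The count of peaks depends on how a marked stretch was broken into calls, and a list without scores gives no height.

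The domains of the 8 genes with the largest rises went both ways. With crotonate 5 of the 8 had more pan-Kcr peaks than in control, 2 had fewer and 1 had none in either list, and for pan-Kac 4 had more and 1 had fewer. Pan-Kcr peaks with crotonate and in control numbered 6 and 1 at Mir124a-1hg, 5 and 0 at Kcnn1, 2 and 0 at Rtn4rl2, 2 and 1 at Serinc2, and 1 and 0 at Celf4. They numbered 4 and 5 at H2-DMa, 1 and 2 at Frmd5 and none at Nsg2. Bcl11a and Islr2, set beside them after their values were seen, had 6 and 1, and 1 and 0. After MS-275 the pan-Kcr list of 5845 peaks had 2 each at H2-DMa and Frmd5, 1 each at Bcl11a, Mir124a-1hg, Kcnn1 and Serinc2, and none at Rtn4rl2, Celf4, Nsg2 or Islr2.

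With MS-275, too, domain genes fell more often than they rose. Of the 1214 domain genes 279 rose (23.0%, background 37.4%) and 580 fell (47.8%, background 27.6%), with a median of -0.15 against 0.08 over all genes. Part of this gap also goes with level. Among all 9449 genes with a mean of at least 10 TPM, falls were the more frequent too, with 32.7% up and 37.8% down. Of the 997 domain genes at that level 21.6% rose and 53.6% fell. Under 10 TPM, 29.5% of 217 domain genes rose and 21.2% fell, against 45.6% and 9.93% of all 5408. Both treatments were compared with the same control libraries, so each is given by its own values. Rtn4rl2 was at 26.5, 22.2, 24.3 and 22.9 TPM with MS-275 (log2 difference from control 2.93, limma adjusted p = 7.26e-09), Celf4 at 16.7 ± 1.61 TPM, and Kcnn1 at 11.7 ± 0.873 TPM. Sema3f, a secreted guidance cue, went from 4.23 ± 1.74 to 24.9 ± 2.67 TPM, and Nyap1, a neuronal adaptor of PI3K, from 1.89 ± 0.822 to 11.6 ± 1.34 TPM. H2-DMa (log2 difference 2.59), the long noncoding gene Miat (2.01) and the splicing regulator Celf3 (1.9) complete the 8 largest rises.

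Cell cycle and splicing genes were lower still. Ccnb1, the mitotic cyclin, was at 206 TPM in every control library and at 52.3, 56.7, 69.8 and 64.9 TPM with MS-275 (log2 difference -1.75, limma adjusted p = 1.93e-09), without overlap. Kif20a went to 21.6 ± 2.89, Cdca2 to 12.5 ± 0.456, Cip2a to 22.4 ± 2.23 and Usp1, a deubiquitinase of DNA repair, from 90.8 ± 3.74 to 26.9 ± 2.18 TPM. Of 9 cell cycle genes 8 fell (median -1.29), and of 21 splicing factors 19 (median -0.64), with Ptbp1 at 92.8 ± 2.69 TPM. E130114P18Rik and Ap4s1 (log2 differences -2.16 and -1.79) were among the largest decreases, as was the histone gene H2ac10, listed at 0 TPM in 3 MS-275 libraries and at 0.939 to 9.03 TPM in control. H2ac10 has near-identical copies, so its level is uncertain.

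More of the telencephalic factors were called with MS-275, as were more domain genes in general (859 of 1214, against 636 with crotonate). Nr2f2 was at 5.59, 4.92, 5.89 and 9.07 TPM in control and 3.28, 3.32, 4.01 and 3.55 TPM in MS-275 libraries. The groups did not overlap (log2 difference -0.67, SE 0.15, limma adjusted p = 0.00143). Of 20 telencephalic factors 13 fell, including Lhx2, Emx2, Nr2f1, Nr2f2 and Otx1, and Bcl11a, Bcl11b and Pou3f3 rose. Among all 1214 domain genes 47.8% fell and 23.0% rose. Sox1, a progenitor factor, went from 16.1 ± 2.36 to 9.52 ± 0.656 TPM, while Sox2 was at 270 ± 15.5 TPM (log2 difference -0.02, limma adjusted p = 0.765). Nfib and Meis2 were called lower by 0.09 and 0.13 on the log2 scale, and both calls were lost in several of the alternatives, quantile normalization among them. Among 9 neuronal genes 5 rose, with Tubb3, neuronal tubulin, from 11.8 ± 1.16 to 29.0 ± 2.05 TPM, and Stmn1, Elavl2 and Elavl4 fell.

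The direct comparison of the treated groups tests where they differ. Of the 1214 domain genes 197 were higher with MS-275 than with crotonate (16.2%, background 19.3%) and 498 lower (41.0%, background 27.4%). The largest differences upward were those of Nyap1 (log2 difference 1.43), Lrrc24 (1.22), Sema3f (1.08) and Psd (0.97), with Tmsb4x, the actin-binding thymosin, at 7360 ± 107 TPM with MS-275 and 3920 ± 375 TPM with crotonate. The largest downward were E130114P18Rik (-1.29), Ap4s1 (-1.12), Cdca2 (-1.11), the histone variant Macroh2a2 (-1.11) and Egr3 (-1.11). Egr3, an immediate early factor, was at 8.63 ± 0.473 TPM with crotonate and 3.55 ± 0.932 TPM with MS-275, on either side of the control at 5.8 ± 1.01 TPM. Egr1 also differed, at 350 ± 23.9 and 219 ± 32.6 TPM (-0.68, limma adjusted p = 7.39e-05), as did Mir124a-1hg, at 7.98 ± 1.85 and 3.48 ± 0.505 TPM (-0.99, limma adjusted p = 0.000463). Rtn4rl2 and Celf4 differed by -0.14 (SE 0.15) and 0.03 (SE 0.1), which missed the threshold.

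**Figure D5:**
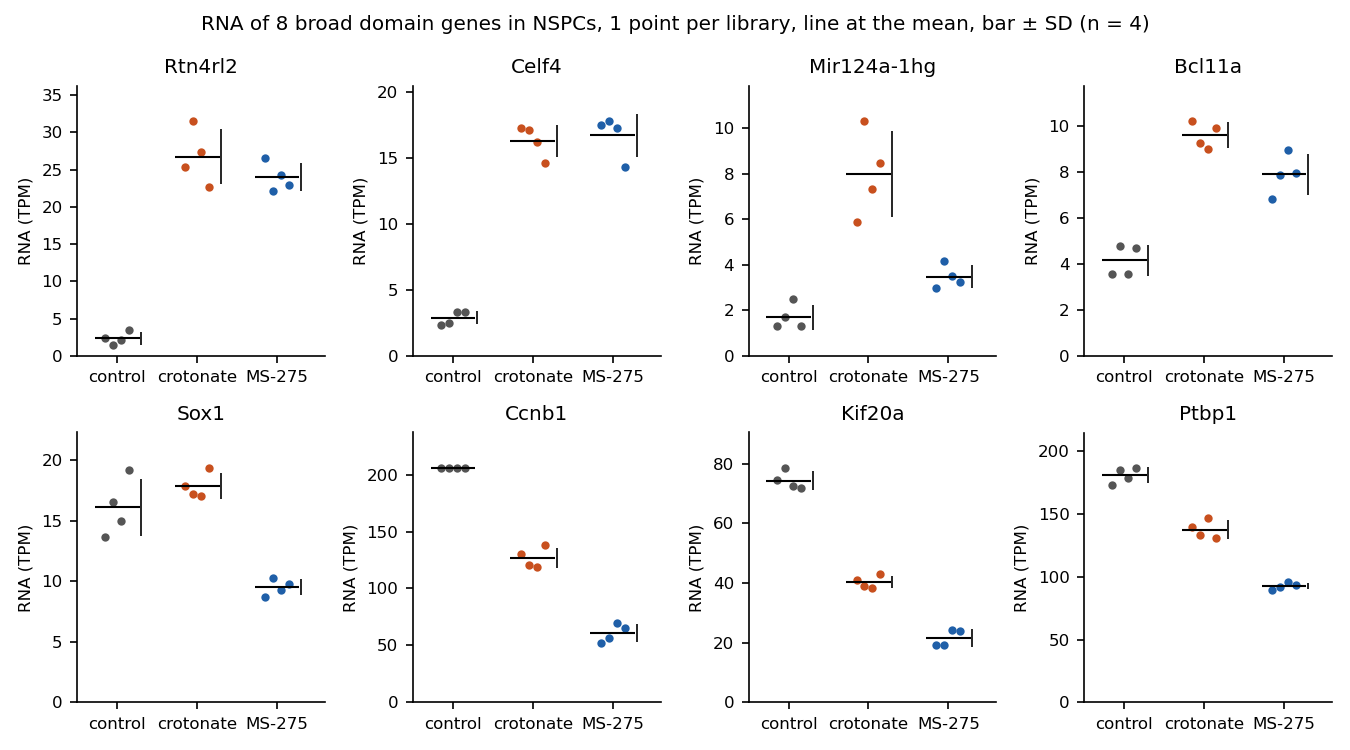
RNA (TPM) of 8 genes of broad domains in NSPC libraries with control, crotonate and MS-275 treatment, 1 point per library, with the mean as a line and the SD as a bar (n = 4). Rtn4rl2 and Celf4 are similarly high in both treated groups, Mir124a-1hg and Bcl11a are highest with crotonate, Sox1 is lowest with MS-275, and Ccnb1, Kif20a and Ptbp1 step down from control to crotonate to MS-275.

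In forebrain explants, domain genes were called more often than the background in both directions. That the table sets crotonate against control is known from its deposited name alone, and every rise and fall given for the explants would change places if it were the reverse. Of 1210 domain genes, 223 rose with crotonate in the authors' deposited table (18.4%, background 10.5%) and 253 fell (20.9%, background 9.75%), at an adjusted p under 0.05 over 14507 genes. Their median log2 fold change in the authors' deposited table was -0.01. Genes in narrower peaks had 11.5% up and 8.81% down in the authors' deposited table. These shares were not matched for level. Domain genes had a median of 58.8 TPM in the forebrain library, against 28.3 TPM for genes in narrower peaks. A gene with more reads passes a threshold more easily, and the part of level in the explant shares was not tested. The explants are ICR tissue pieces and the NSPCs C57BL/6 cultures, and the explant table gives no values per library, so whether the groups overlap is unknown.

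In the authors' deposited table the largest rises of domain genes were Egr1 (log2 fold change 0.66, SE 0.1, DESeq2 adjusted p = 2.16e-09), the kinase gene Nuak1 (0.65), A930024E05Rik (0.53) and Nfib (0.52, SE 0.018, DESeq2 adjusted p = 1.24e-170). In the authors' deposited table Zfas1 (0.51), Irf2 (0.49), Spry2 (0.47) and 2410006H16Rik (0.47) followed. Nfib, the gene of 1 of the 5 widest domains, had a log2 difference of -0.06 with crotonate in NSPCs, which missed the threshold there. The largest decreases in the authors' deposited table were Otx2, a midline and choroid plexus factor (-1.41, SE 0.15, DESeq2 adjusted p = 1.35e-18), Bhlhe40 (-1.11), Ddit4 (-1.09), Vax1 (-1.02), Vegfa (-0.95), Zic1 (-0.88), Lfng (-0.87) and H1f10 (-0.82). Bhlhe40, Ddit4 and Vegfa are known targets of hypoxia signalling, and Vax1, Zic1 and Otx2 factors of the ventral and medial forebrain.

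Ventral genes were mostly lower in the explants, read in that direction. Of 14 ventral and GABAergic genes in broad domains, 10 fell in the authors' deposited table, among them Dlx1, Dlx2, Dlx5 and Dlx6 (log2 fold changes -0.2, -0.45, -0.44 and -0.52), Gad1 (-0.16) and Gad2 (-0.38), and Foxp1 rose. Of 17 progenitor genes, 13 fell and Fabp7 rose in the authors' deposited table, with Sox2 at -0.33 (SE 0.032). Telencephalic factors went both ways in the authors' deposited table, 8 up and 10 down of 25, with Pou3f3 at -0.21 and Bcl11a at 0.07. Splicing factors, which fell nearly together in the NSPCs, were divided in the authors' deposited table, with 6 up and 5 down of 21, and 4 of 9 cell cycle genes fell.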

How the data were processed

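RNA was sequenced from 12 NSPC libraries, 1 forebrain library and 6 explant libraries, and forebrain and NSPC ChIP peaks were called in 1 library each. Per the submitters' processing notes, the tools included Bowtie2 2.3.5.1, MACS2 2.2.5, Salmon 1.0.0 and DESeq2 1.26.0 on GRCm38. The deposited forebrain lists give per peak a score, the fold enrichment as a ratio at the summit, and -log10 p and q. The NSPC lists hold positions alone, so their calling threshold is not given in the sources used here. TPM values were deposited by the authors as 1 table whose columns sum to 998182 to 999495, with no read counts, so depth and its precision cannot be given. The authors' explant table holds a mean signal of normalized counts, log2 fold changes with SE, a test score, and p-values with adjusted p, and that it sets crotonate against control is known from its deposited name alone. Bisulfite, input and IgG libraries were not analysed here.

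Samples were grouped by title. The members, gene lists and tests were chosen with earlier results of these data known. Overlaps used at least 1 bp. A gene belonged to a domain when its RefSeq start (GRCm38.p6), or either gene end where no start entry exists (301 of 1461 genes), lay inside it. Of these genes 1316 matched the TPM table, 33 by an older symbol, and 1313 the explant table. Promoters on chromosome 18, where 40 of the 1191 domains lie, were left out of the promoter sequences and counts. NSPC RNA was tested with limma 3.58.1 (R 4.3.3, trend, two-sided) on log2(TPM + 1), in 1 fit of 3 groups, for genes that reached 1 TPM in 4 or more of 12 libraries, with Benjamini-Hochberg adjustment over 14857 genes and a threshold of 0.05; a log2 difference on this scale understates the change of low genes. The procedure was tested on simulated data. The TPM columns were mapped by their names, and the replicates, labelled as biological, are taken as separate samples.

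Named genes were the 8 per direction and contrast with the largest change past the threshold, no overlap between groups, a higher group mean of 5 TPM or more (50 normalized counts for explants), predicted genes left out. From each list the 4 genes with the widest domains were also eligible, and the 15 widest domains were named (1 is not reported here), as were 5 each without a gene start, without a control NSPC peak and on either side of 2500 bp, and 3 each with the lowest and highest H3K9cr share. Other genes named, such as the microRNA hosts and further list members, were chosen after their values were seen.

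Deviations from group means correlated between NSPC libraries of the same replicate number at 0.119 to 0.241 (12 pairs) and between other numbers at -0.197 to 0.0993 (36 pairs), so the numbers were taken to pair the samples. The fit without this block was kept and the block run as an alternative, besides other pseudocounts, filters, scalings, widths and overlaps, and each replicate left out. Overlaps and figures were made in Python 3.11.15 with pandas 2.3.3, NumPy 2.4.6 and matplotlib 3.10.9.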

Additional observations from a re-analysis of the deposited data

Results flagged for a closer look

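Among 234 groups of 4 NSPC libraries, 1 per named gene and treatment, 15 held a library far from the other 3 by Dixon's ratio, and chance flags about 1 in 20 groups. In control libraries the highest value stood apart for H2-DMa (5.24 TPM), Atf5 (51.4 TPM), Nyap1 (3.12 TPM) and Islr2 (1.07 TPM). In crotonate libraries the lowest stood apart for Cip2a (39.0 TPM), Cdca2 (23.9 TPM), Gcat (17.8 TPM) and Ap4s1 (26.0 TPM), and the highest for Islr2 (4.65 TPM). In MS-275 libraries the lowest stood apart for Celf4 (14.3 TPM) and Sox2 (247 TPM), and the highest for H2ac10 (0.752 TPM), Mir124-2hg (13.3 TPM), Brd2 (120 TPM) and Ier2 (45.7 TPM).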

How the results depend on the processing

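For 17 summary results of the broad domains 192 alternatives were run, and 187 stayed within 1.5 times of the value given or within the stated spread. The 5 that did not were the share of domain genes at least 2-fold higher in the forebrain, 51.9% with a width limit of 3500 bp, and the MS-275 overlaps, 13.1% for pan-Kac and 10.7% for pan-Kcr at 500 bp of overlap, and 18.2% and 14.5% in the central 500 bp. For 142 results on named genes 2406 alternatives were run: 66 lost a call, 20 gained one and 2 changed sign. Both were for Mn1 under quantile normalization, at -0.12 with crotonate and -0.25 with MS-275; the cause was not tested. Quantile normalization also ended the calls on Gad2 with crotonate (0.26) and Mir124a-1hg with MS-275 (0.24), and gave 20.9% of domain genes up and 50.9% down with MS-275. With the replicate number as a block, 675 domain genes were called with crotonate instead of 636 (626 shared), 883 instead of 859 with MS-275 (852 shared) and 725 instead of 695 between the treatments (684 shared); the block gave 21.2% up and 34.4% down with crotonate. It moved the count of immediate early genes as given above, and Otx2 (0.42) was called with crotonate under it and not without it. No paired analysis of the explants was possible because the explant table holds no values per library. Forebrain marks, forebrain RNA and each NSPC peak list rest on 1 library, so no error is known for them, and without read counts the depth sets no stated limit.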
